A study of Mus musculus with 6 samples.

Results

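Bone marrow B cells of wild-type mice that carried the λ light chain on their surface were compared with those that carried the κ chain. The comparison used 4 of the 6 arrays of the series, 2 of Igλ+ cells and 2 of Igκ+ cells, chosen by their titles. On each array 45101 probe sets were read, and the 34945 that carry a single gene symbol were described here. Of these, 22388 probe sets of 11683 genes entered the test because their mean over the 4 arrays exceeded 24.8, which is the 40th percentile of the whole array, while 1094 of them exceeded that level in the mean of 1 group only.

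A B cell makes its antibody from a heavy chain and 1 of the 2 kinds of light chain. In developing mouse B cells the RAG1 and RAG2 recombinase first joins V and J segments at the κ locus, and cells whose κ genes fail, or whose receptor binds self antigen, can go on to rearrange λ. Most mouse B cells therefore carry κ, and λ-bearing cells have often deleted or inactivated their κ genes on the way.

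Both groups came from C57BL/6 mice, 8 to 12 weeks old, with the genotype given as mb-1/TAK1+/+; TAK1 is the kinase encoded by Map3k7, and the meaning of mb-1 is not given. Cells positive for CD3, Ter119, CD11b, DX5 or Gr1 were depleted before B cells were sorted with antibodies to Igκ or Igλ, and all 4 arrays share this treatment. Sex is labelled as mixed, and whether replicates were separate animals or pools is not said, so part of the spread between replicates may be technical. Xist, below, shows that the Igκ+ replicates came from different mice. The sorted cells may span several stages of B cell development. In such bulk RNA fewer cells of a type and less RNA per cell cannot be told apart.

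The arrays carried similar B cell signal and differed in other respects. Summed signals of 11 measured B cell markers, among them Cd79a, Cd79b, Ms4a1 and Cd22, ran from 68617 to 74959, and Map3k7 read 2196 and 1805 in Igκ+ and 2149 and 1957 in Igλ+ cells. The 95th percentile of the 27 control probe sets for bacterial RNA that was not added, taken as the background of an array, lay between 10.3 and 17.4. Correlations of log2 signals over the tested probe sets ran from 0.934 to 0.975 between pairs of arrays. The lowest was that of the 2 Igλ+ replicates, of which 11.8% of probe sets were at least 2-fold apart, against 5.61% for the 2 Igκ+ replicates. Igλ+ replicate 1 had the highest signal of the 4 arrays for 41.7% of genes. Xist, the RNA of the inactive X chromosome, read 4290, 1741 and 4977 on Igκ+ replicate 1 and on Igλ+ replicates 1 and 2 but 1.97 on Igκ+ replicate 2, where it was at background. The Y-linked Eif2s3y lay between 3634 and 5248 on all 4 arrays. Igκ+ replicate 2 therefore goes against the label of mixed sex, and the mice behind the 2 Igκ+ replicates differed in that respect.

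Light chain transcripts were read first, as a check of the sort rather than a finding. Each of the 16 κ probe sets with a single symbol and an Igκ+ mean of at least 200, which stand for 12 genes, was lower on Igλ+ replicate 1 than on any other array, and 15 of the 16 were lower on both Igλ+ arrays than on both Igκ+ arrays. The brightest κ probe set read 11754 and 12400 in Igκ+ cells and 503 and 10129 in Igλ+ cells. Igkv14-111, a κ variable gene, read 7223 and 5985 in Igκ+ cells and 7.81 and 858 in Igλ+ cells. Igkv6-15 read 6065 and 6489 against 4.61 and 2880. On Igλ+ replicate 1 the κ probe sets had a median of 0.405% of their Igκ+ mean, with a range from 0.0735% to 4.16%, and 7 of the 16 were at background. On Igλ+ replicate 2 the median was 26.5%, with a range from 9.74% to 83.9%, and 0 were at background. The Igλ+ arrays thus differed widely from each other in κ transcripts. Whether the κ signal on replicate 2 came from Igκ+ cells in the sort or from κ transcripts in Igλ+ cells was not tested. The 8 κ probe sets with Igκ+ means above 5000 kept a median of 40.2% on replicate 2, and the 8 between 200 and 5000 kept 24.9%. The median log2 difference of the κ probe sets, Igλ+ minus Igκ+, was -4.05; it was -1.66 without Igλ+ replicate 1 and -6.14 without Igλ+ replicate 2.

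λ transcripts were present in both groups. An Iglv1 probe set read 2740 and 3102 in Igκ+ cells and 6978 and 7443 in Igλ+ cells, a log2 difference of 1.30 ± 0.16 (SE), and had the smallest p of all probe sets. A second read 5490 and 3018 against 7382 and 8683. Both had their groups apart. The remaining Iglv1 probe set overlapped, with 5382 and 4263 in Igκ+ cells against 2737 and 4976. The probe set shared by Iglc1 and Iglv1 read 7409 and 9221 against 10791 and 11495. The separation of the groups was therefore narrower at λ than at κ, with a median log2 difference of 0.97 over the 3 Iglv1 probe sets.

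**Figure D1:**
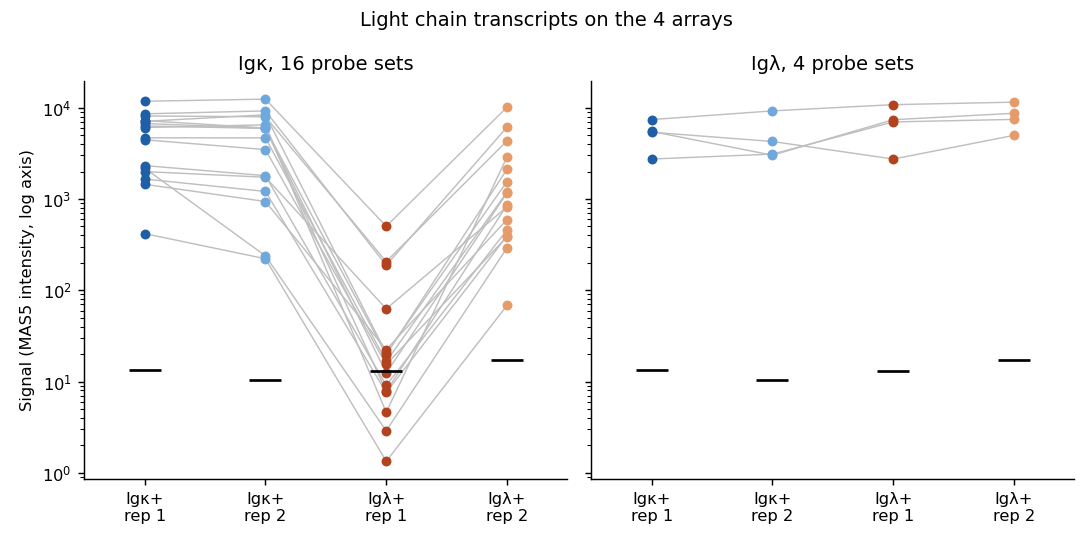
Signals (y axis, MAS5 intensity, logarithmic) of 16 κ probe sets (left) and 4 λ probe sets (right) on the 4 arrays (x axis); each point is 1 probe set, grey lines join a probe set across arrays and black bars mark the background of each array. The κ probe sets lie at a median of 0.405% of their Igκ+ mean on Igλ+ replicate 1 and of 26.5% on Igλ+ replicate 2.

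Over all probe sets, light chains included, limma's moderated test found 0 past an adjusted p of 0.05. The smallest adjusted p, that of the Iglv1 probe set above, was 0.949. At an unadjusted p under 0.05 there were 233 probe sets, or 1.04% of those tested, 146 higher (0.652%) and 87 lower (0.389%) in Igλ+ cells. An exact permutation of 2 arrays against 2 cannot give a two-sided p under 0.3333. What follows is therefore a description of levels, and "higher" or "lower" names the order of the 4 arrays and no call. Both Igλ+ arrays lay above both Igκ+ arrays for 12.6% of probe sets and below them for 8.94%. Counted by each gene's brightest probe set, the shares were 13.1% and 9.19%, and the median log2 difference over all genes was 0.04. At least 2-fold apart in the same direction in all 4 pairs of arrays were 15 higher probe sets, 0.067%, and 15 lower ones, 0.067%.

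Among the 12 named genes on the higher side the brightest were the coagulation factor gene F5, the guanine nucleotide exchange factor gene Mcf2l and the neutral amino acid transporter gene Slc1a4. F5 read 43.6 and 31.4 in Igκ+ cells and 251 and 179 in Igλ+ cells, a log2 difference of 2.10 ± 0.39 (SE). Its second probe set, 14.2 and 14.0 against 43.9 and 37.1, had the same order. Mcf2l read 82.3 and 49.4 against 401 and 240. Slc1a4 read 104 and 91.4 against 345 and 306, the tightest of the 3 within groups. Its other 2 probe sets had the same order but did not pass the filter. They read 18.3 and 9.56 against 22.1 and 35.2, and 23.3 and 6.16 against 40.5 and 29.2. In both, Igκ+ replicate 2 was at background, so they add little. The 12 probe sets that put these genes on the list were dim in Igκ+ cells, where no array read above 103.8. For 7 of these probe sets (of Rnf217, Dapl1, Tsc22d1, Trpc7, 1700128F08Rik, Hoxa3 and Tubb4b) both Igκ+ arrays were at background, and for those of Igfbp2 and Scube1 1 was, so the sizes of these differences depend on the value of 16 added before taking log2. These 7 and those of Igfbp2 and Scube1 had Igκ+ means under the filter of 24.8. They entered the test through the Igλ+ arrays and could be listed only as higher. Scube1, which encodes a secreted and membrane-bound protein with EGF-like repeats, read 9.87 and 11.4 against 57.8 and 58.8. Hoxa3, a homeobox gene, read 13.4 and 7.57 against 59.9 and 48.7. For Tsc22d1 and Tubb4b, a β-tubulin gene, the brightest probe set did not show the difference: that of Tubb4b read 2216 and 2301 in Igκ+ against 3052 and 1597 in Igλ+ cells. These 2 differences thus belong to 1 dim probe set each.

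Rgs1 and Wfdc21 were among the genes of the smallest unadjusted p. Rgs1, a regulator of G protein signalling that limits chemokine responses, read 145 and 38.4 in Igκ+ and 558 and 295 in Igλ+ cells. Wfdc21 read 384 and 365 against 740 and 1211. Cox6a2, a cytochrome c oxidase subunit that is also a plasmacytoid dendritic cell marker, read 122 and 82.7 against 264 and 259. Of 11 dendritic cell markers that entered the test, 3 were higher on both Igλ+ arrays (Bst2, Cox6a2 and Flt3) and 0 lower. The shares of all genes were 13.1% and 9.19%. Siglech, another plasmacytoid marker, overlapped at 14.6 and 37.3 against 238 and 30.1. Wfdc21 differed little within the Igκ+ group and Cox6a2 little within the Igλ+ group.

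**Figure D2:**
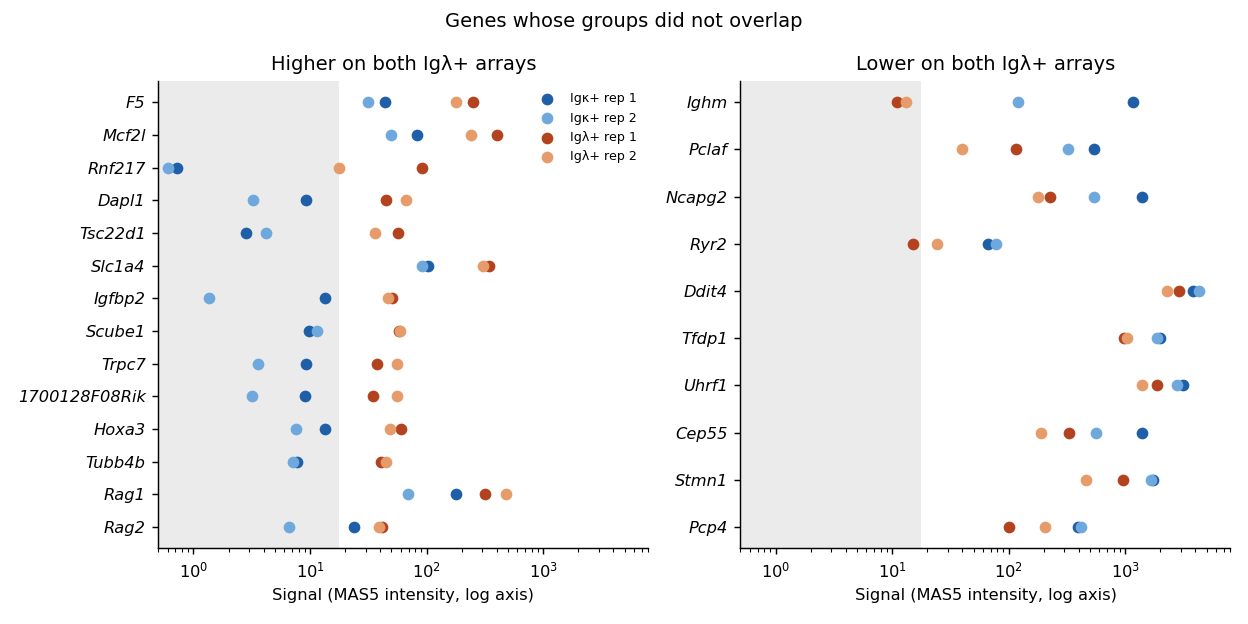
Signals (x axis, MAS5 intensity, logarithmic) of genes with both Igλ+ arrays above (left) or below (right, light chain genes left out) both Igκ+ arrays, with 1 probe set per gene; each point is 1 array and the grey band ends at 17.4, the highest background of the 4 arrays. Of the first 12 genes on the left, 7 have both Igκ+ points at or under the background of their array. The genes drawn on the right other than Ighm and Ryr2 are above it on every array, Pclaf the least, at 39.5 on Igλ+ replicate 2. Ighm is drawn by the probe set that named it, while its brightest probe set overlapped between the groups.

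The recombinase genes were higher on both Igλ+ arrays. Rag1 read 178 and 69.4 in Igκ+ cells and 315 and 478 in Igλ+ cells, a log2 difference of 1.65 ± 0.48 (SE). Rag2 read 23.8 and 6.56 against 41.6 and 39.2, close to background in all samples and at it on Igκ+ replicate 2. Its Igκ+ mean of 15.2 was under the filter of 24.8, so Rag2 entered the test through the Igλ+ arrays and could only be higher. The difference of Rag1 kept its direction under every alternative processing, between 1.06 and 2.24 as single arrays were left out. Leaving out 1 array could not turn it, because the groups did not overlap. The 2 genes lie next to each other on chromosome 2 in opposite orientation and are expressed together in developing lymphocytes, so their promoters are shown, as the 250 bases before the start of the RefSeq transcript in assembly GRCm38.p6. That of Rag1 is chr2:101649533-101649782 on the minus strand and that of Rag2 chr2:101624462-101624711 on the plus strand. Capitals mark each E-box, CANNTG, the core bound by E proteins such as the product of Tcf3; the motif reads the same on both strands, and 66.2% of 32851 promoter windows of this length hold it.
Rag1: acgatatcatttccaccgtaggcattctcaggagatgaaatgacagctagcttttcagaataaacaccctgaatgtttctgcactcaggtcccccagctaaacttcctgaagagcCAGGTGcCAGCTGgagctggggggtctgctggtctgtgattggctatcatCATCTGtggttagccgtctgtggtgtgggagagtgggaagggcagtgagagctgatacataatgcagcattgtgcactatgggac
Rag2: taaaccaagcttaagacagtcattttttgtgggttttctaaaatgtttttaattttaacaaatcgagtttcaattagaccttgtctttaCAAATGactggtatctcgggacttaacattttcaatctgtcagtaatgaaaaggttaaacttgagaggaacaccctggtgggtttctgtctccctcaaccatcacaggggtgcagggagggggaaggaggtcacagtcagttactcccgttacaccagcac
The Rag1 window held 3 matches, from -135, -128 and -85 before the start, and the Rag2 window 1, from -161.

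Other genes of early B cell development were mixed. Of 16 measured pro-B and pre-B cell genes, 4 were higher on both Igλ+ arrays (Rag1, Rag2, Igll1 and Il7r) and 1 was lower (Lef1), against 13.1% and 9.19% of all genes, with a median log2 difference of 0.23. Rag2 is in this count although it passed the filter through the Igλ+ arrays only. Igll1, the λ5 part of the surrogate light chain of pre-B cells, read 2883 and 1231 in Igκ+ and 3386 and 3185 in Igλ+ cells. Il7r, the receptor for the pre-B cell growth factor IL-7, read 551 and 139 against 780 and 613. In both cases Igκ+ replicate 2 was the low array and Igκ+ replicate 1 lay much nearer to the Igλ+ pair. Lef1, a transcription factor of pro-B and pre-B cells, read 1639 and 1706 against 462 and 1458, so only Igλ+ replicate 1 stood apart. Dntt, the polymerase that adds bases at the joins of heavy chain segments in pro-B cells, read 353 and 111 against 1287 and 43.3, highest and lowest on the 2 Igλ+ arrays. The median of the list became -0.02 without Igλ+ replicate 2 and 0.48 without Igλ+ replicate 1. Of 12 genes of V(D)J recombination and end joining, Xrcc6, the Ku70 subunit that holds DNA ends, was higher too (1328 and 993 against 1794 and 1404), and Xrcc4 and Hmgb2 were lower.

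Genes lower on both Igλ+ arrays included κ genes and several genes of dividing cells. Of 8 named on this side, 4 were κ genes and the others Ighm, Pclaf, Ncapg2 and Ryr2. Ighm was named through a single probe set. Its brightest probe set overlapped, at 7199 and 8585 in Igκ+ against 7486 and 7650 in Igλ+ cells. Ncapg2, a subunit of condensin II, which compacts mitotic chromosomes, read 1391 and 537 in Igκ+ and 227 and 180 in Igλ+ cells, a log2 difference of -2.02 ± 0.46 (SE). Pclaf, a PCNA-binding factor, read 536 and 321 against 116 and 39.5 and, at its brightest probe set, 1690 and 1077 against 789 and 184. Tfdp1, the DNA-binding partner of E2F factors, read 1976 and 1878 against 979 and 1046, with little spread within either group. Uhrf1, which maintains DNA methylation at replication, read 3118 and 2805 against 1883 and 1389. Cep55 (1387 and 559 against 332 and 189) had the same order. Stmn1 read 4972 and 5426 against 4571 and 2622 at its brightest probe set, where Igλ+ replicate 1 was near the Igκ+ pair, and 1729 and 1658 against 966 and 457 at the other.

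The wider cell cycle list did not separate the groups. Of its 29 measured genes 1, Pclaf, had the groups apart, and the median log2 difference was -0.40. Mki67, the proliferation antigen Ki-67, read 2457 and 763 in Igκ+ and 1379 and 203 in Igλ+ cells, and Top2a read 2460 and 757 against 1137 and 252. The order of the arrays, Igκ+ replicate 1, then Igλ+ replicate 1, Igκ+ replicate 2 and Igλ+ replicate 2, interleaved the groups. Igκ+ replicate 1 was highest for 22 of the 29 genes and Igλ+ replicate 2 lowest for 21, against 18.9% and 26.4% of all genes. The median of the list turned with the array left out: it was 0.14 without Igκ+ replicate 1 and 0.24 without Igλ+ replicate 2, but -1.01 without Igκ+ replicate 2 and -0.95 without Igλ+ replicate 1. The replication helicase genes Mcm2 to Mcm7 had log2 differences from -0.09 to 0.16.

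Chaperones of the endoplasmic reticulum, where immunoglobulin chains fold, were slightly higher in Igλ+ cells under the deposited scaling. Of 19 genes of the chaperone and unfolded protein response list, 7 were higher on both Igλ+ arrays and 0 lower, against 13.1% and 9.19% of all genes, with a median log2 difference of 0.17. They were Hspa5, Pdia6, Calr, Canx, Sec61b, Ddit3 and Trib3. Hspa5, the chaperone BiP that binds unpaired heavy chains, read 5687 and 5924 in Igκ+ and 6953 and 6853 in Igλ+ cells. Its second bright probe set overlapped, at 4462 and 6727 against 5634 and 5199. The calnexin gene Canx read 5255 and 5216 against 5514 and 5916. Ddit3, the stress-induced factor CHOP, read 1133 and 1206 against 1729 and 1641, and its second probe set 357 and 365 against 461 and 502. Trib3, a pseudokinase induced with it, read 44.2 and 40.6 against 107 and 78.6. The differences were small beside those at the light chains and none passed the test. The count was 7 under quantile normalization, where 11.3% of all genes were higher, 2 under median centring (6.16%) and 3 under scaling on the spiked controls (5.21%), where the median of the list was -0.01.

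Hspa5, Pdia6, Calr and Canx share the ER stress element, the site through which ATF6 drives chaperone genes, and their promoters are shown for that reason. The motif searched was CCAAT followed, after any 9 bases, by CCACG, on both strands, and 0.113% of the 32851 windows hold it. Of 17 genes of the list with a promoter in the RefSeq table, 6 held it (Hspa5, Hsp90b1, Dnajc3, Pdia6, Calr and Canx). The windows of 250 bases are chr2:34771840-34772089 on the plus strand for Hspa5, chr12:17266339-17266588 on the plus strand for Pdia6, chr8:84846932-84847181 on the minus strand for Calr and chr11:50325674-50325923 on the minus strand for Canx. Capitals mark the element.
Hspa5: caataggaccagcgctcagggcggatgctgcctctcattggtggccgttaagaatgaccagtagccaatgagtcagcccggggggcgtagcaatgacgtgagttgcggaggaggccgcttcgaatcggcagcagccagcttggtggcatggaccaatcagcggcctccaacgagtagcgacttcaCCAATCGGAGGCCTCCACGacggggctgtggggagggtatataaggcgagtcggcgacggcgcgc
Pdia6: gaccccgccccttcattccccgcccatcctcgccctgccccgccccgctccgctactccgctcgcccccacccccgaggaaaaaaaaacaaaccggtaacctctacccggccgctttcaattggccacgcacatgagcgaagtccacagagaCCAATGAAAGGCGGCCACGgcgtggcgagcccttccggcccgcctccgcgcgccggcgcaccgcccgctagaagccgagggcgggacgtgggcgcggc
Calr: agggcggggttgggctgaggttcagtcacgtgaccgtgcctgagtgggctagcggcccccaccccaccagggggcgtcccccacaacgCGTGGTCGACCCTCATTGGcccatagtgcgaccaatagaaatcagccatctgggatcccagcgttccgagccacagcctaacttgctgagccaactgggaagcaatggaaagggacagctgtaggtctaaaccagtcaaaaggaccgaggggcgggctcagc
Canx: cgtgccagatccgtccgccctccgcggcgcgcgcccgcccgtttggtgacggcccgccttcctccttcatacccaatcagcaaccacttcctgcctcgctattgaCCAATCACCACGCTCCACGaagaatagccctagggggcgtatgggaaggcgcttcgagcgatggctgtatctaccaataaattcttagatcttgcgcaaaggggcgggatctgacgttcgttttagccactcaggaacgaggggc
It began at -65 in Hspa5, -98 in Pdia6 and -145 in Canx, and lay on the opposite strand from -162 in Calr. Hsp90b1 and Dnajc3, which hold it too, overlapped between the groups: Hsp90b1 read 5573 and 3879 in Igκ+ and 5484 and 5568 in Igλ+ cells.

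Interferon-stimulated genes, which code for antiviral proteins, were higher on Igλ+ replicate 1 in particular. Of 19 measured, 9 were higher on both Igλ+ arrays (Isg20, Mx1, Mx2, Irf9, Oas1a, Oasl1, Rsad2, Usp18 and Bst2) and 0 lower, with a median log2 difference of 0.39, against 13.1% and 9.19% of all genes. Mx1, a GTPase that blocks influenza viruses, read 1182 and 864 in Igκ+ and 1543 and 1506 in Igλ+ cells, and Mx2 read 189 and 91.7 against 243 and 222. In these the 2 Igλ+ arrays were alike. Oas1a, an oligoadenylate synthetase, read 459 and 392 against 1138 and 541, and the transcription factor gene Irf7 read 503 and 424 against 1001 and 372. In these replicate 1 carried the difference, and 16 of the 19 genes were highest on that array, against 41.7% of all genes. The median was 0.07 without Igλ+ replicate 1 and 0.80 without Igλ+ replicate 2. The markers of monocytes, some of which respond to interferon themselves, were also highest on Igλ+ replicate 1, with summed signals of 20241 against 5140 to 8177 on the other arrays; their part in the result was not tested. Of the 19 genes, 8 were higher on both Igλ+ arrays under quantile normalization (11.3% of all genes), 3 under median centring (6.16%) and 3 under scaling on the spiked controls (5.21%).

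Oas1a and Bst2 are shown as promoters of this group with the interferon-stimulated response element, searched as GAAA, any 2 bases and GAAA on either strand. It is in 2.98% of the 32851 windows and in those of 7 of 15 listed genes with a promoter in the table. The window of Oas1a is chr5:120907526-120907775 and that of Bst2, the membrane protein tetherin, chr8:71537473-71537722, both on the minus strand, with overlapping matches in capitals.
Oas1a: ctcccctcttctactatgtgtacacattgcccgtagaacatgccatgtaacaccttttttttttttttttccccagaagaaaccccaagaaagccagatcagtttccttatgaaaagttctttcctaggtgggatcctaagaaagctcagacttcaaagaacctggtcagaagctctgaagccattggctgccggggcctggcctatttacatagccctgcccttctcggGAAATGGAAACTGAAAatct
Bst2: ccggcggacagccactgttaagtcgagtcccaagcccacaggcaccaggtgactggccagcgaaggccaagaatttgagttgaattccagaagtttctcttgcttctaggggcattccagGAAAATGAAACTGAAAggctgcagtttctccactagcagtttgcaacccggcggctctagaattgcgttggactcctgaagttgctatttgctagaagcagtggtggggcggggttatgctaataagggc
In Oas1a 2 overlapping matches began at -20 and -14, and in Bst2 at -130 and -124. Bst2 read 904 and 959 in Igκ+ and 1440 and 1011 in Igλ+ cells. Its Igλ+ replicate 2 was near the Igκ+ pair.

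**Figure D3:**
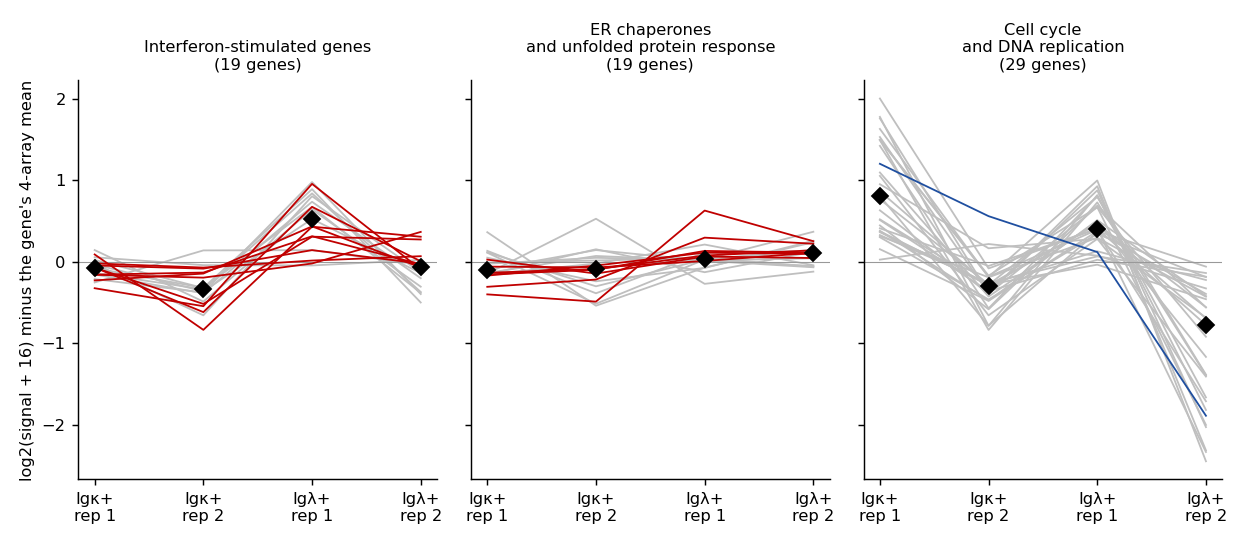
Levels of the genes of 3 lists on the 4 arrays (x axis) as log2(signal + 16) minus the gene's mean over the arrays (y axis); each line is 1 gene, red where both Igλ+ arrays are above both Igκ+ arrays and blue where both are below, and black diamonds are list medians. Cell cycle medians interleave the groups, from 0.81 on Igκ+ replicate 1 to -0.77 on Igλ+ replicate 2, and those of the interferon list peak at 0.53 on Igλ+ replicate 1.

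The IgA transcripts were low on 1 array. Igha, the IgA heavy chain constant region, read 10263 and 7531 in Igκ+ and 8055 and 348 in Igλ+ cells. Jchain, which links IgA and IgM into polymers, read 9837 and 4130 against 4147 and 117. On Igλ+ replicate 2 both were far below the other 3 arrays, and Igλ+ replicate 1 lay near Igκ+ replicate 2. Of 17 plasma cell genes, Prdm1, Sdc1 and Tnfrsf17 were lower on both Igλ+ arrays and 0 were higher, against 9.19% and 13.1% of all genes. Under median centring 8 were lower (20.7% of all genes), and under scaling on the spiked controls 10 were (29.7%). Prdm1, the plasma cell regulator Blimp-1, read 219 and 107 against 71.7 and 90.5, and Tnfrsf17, the receptor BCMA, read 227 and 35.2 against 35.2 and 12.9. Tnfrsf17 was thus practically tied between Igκ+ replicate 2 and Igλ+ replicate 1. On Igλ+ replicate 2 it was under the background of 17.4, so its place in this count carries little weight. Other genes of secretion, such as Mzb1 (4288 and 5127 against 4296 and 4776) and Xbp1 (2175 and 1469 against 2376 and 1886), overlapped.

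B cell receptor signalling, lineage and NF-κB genes differed little between the groups, in counts near or under the shares of all genes. Of 28 receptor signalling genes 2 were higher (Pik3ap1 and Fcrla) and 3 lower (Cd81, Fyn and Grb2), with a median log2 difference of 0.00. Of 27 lineage transcription factors 0 were higher and 1 lower, Tcf3, which encodes E2A and read 1626 and 1831 in Igκ+ and 1259 and 1387 in Igλ+ cells. The factors that define B cell identity lay close together, as with Ebf1 (5983 and 6172 against 5926 and 6411). Of 22 NF-κB pathway components 1, Tab3, was lower, and of 28 NF-κB target genes 1, Cd83, was higher. Of 13 genes of MHC class II and peptide loading only Rfx5 had the groups apart, and was lower. Of 17 homing and chemokine receptor genes 0 were apart. Of 11 survival and death genes of the Bcl2 family Bcl2, Pmaip1 and Bcl2l2 were lower and 0 higher. This count of lower genes, unlike those above, exceeds the 9.19% of all genes. Bcl2 read 2073 and 2314 against 1697 and 1699. These orders hold for the deposited scaling. With the arrays scaled on the spiked controls, 29.7% of all genes were lower in Igλ+ cells, and 12 of the 27 lineage factors with them.

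Among 21 immediate-early genes, which respond within minutes to receptor signals and to handling, Jun, Egr1 and Klf6 were higher and 0 lower, a count of higher genes close to the 13.1% of all genes. Jun read 3098 and 1065 in Igκ+ and 4470 and 3245 in Igλ+ cells. Egr1 read 4917 and 4077 against 5544 and 5476. Igκ+ replicate 2 was the lowest array for 13 of the 21 genes, against 37.3% of all genes. Igλ+ replicate 1 was the highest for 16, against 41.7% of all genes. Scaled on the spiked controls, 0 were higher and 4 lower, where 5.21% and 29.7% of all genes were.

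**Figure D4:**
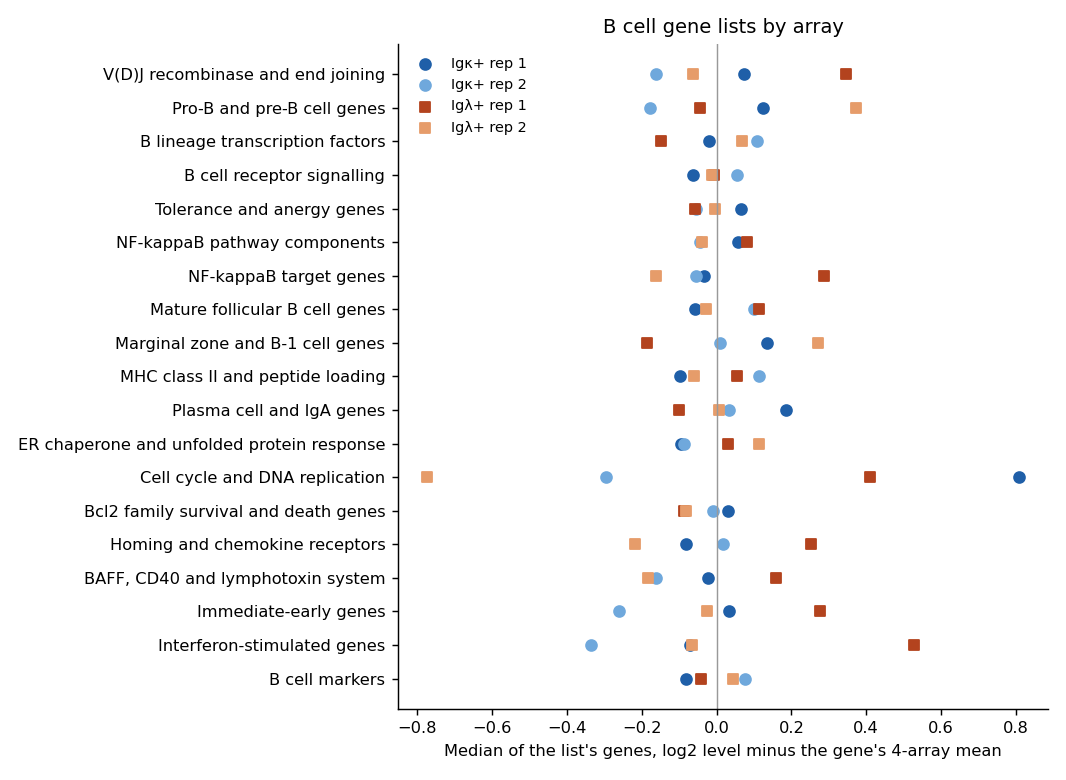
Median level of each B cell gene list on each array (x axis, log2 level minus each gene's mean over the 4 arrays; circles for Igκ+, squares for Igλ+ arrays). The lists stay near 0 except the cell cycle list, which spans -0.77 to 0.81, and single arrays of the interferon, recombination and pre-B cell lists.

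Apart from the κ genes, the Igλ+ replicates differed from each other in markers of other cells. Igλ+ replicate 1 was at least 2-fold above all 3 other arrays for 428 genes, against 19 to 30 genes for each of the others. All 13 granulocyte markers that entered the test were highest on it, against 41.7% of all genes. So were 14 of 16 monocyte and macrophage markers and all 12 of the megakaryocyte, basophil and mast cell list. Some of these markers entered the test only because this array was high, so the counts were partly fixed by the filter. Ltf, for example, read 27.6 and 1.62 in Igκ+ and 582 and 26.6 in Igλ+ cells. Ppbp read 19.9 and 24.8 against 1374 and 2.41. The summed signal of the granulocyte markers was 6258 and 419 on the Igκ+ arrays and 46964 and 390 on the Igλ+ arrays. S100a8, a calcium-binding protein of neutrophils, read 1189 and 65.9 in Igκ+ and 8309 and 56.8 in Igλ+ cells. Mpo, the myeloperoxidase of early granulocytes, read 1702 and 63.8 against 7357 and 55.0. Mcpt8, a basophil protease, read 897 and 67.3 against 4054 and 18.4, and the platelet chemokine Pf4 207 and 33.6 against 2977 and 10.4. Igκ+ replicate 1 thus lay between Igλ+ replicate 1 and the other arrays. The genes with the largest excess of Igλ+ replicate 1 over replicate 2, among those alike on the Igκ+ arrays, were Ppbp, S100a4, Ccr2, Fcgr3, Igfbp4, Sntb1, Epx and Alox5ap. All 8 of the genes with the largest excess of replicate 2 over replicate 1 were κ genes.

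Markers of NK cells followed another order. Of 10 that entered the test 7 were highest on Igκ+ replicate 2, against 20.8% of all genes. Gzma, a granzyme of cytotoxic cells, read 22.6 and 1457 in Igκ+ and 387 and 4.12 in Igλ+ cells, and the chemokine gene Ccl5 8.39 and 393 against 134 and 1.83. Summed T cell and erythroid markers lay within 4882 to 6530 and 11100 to 12039 on the 4 arrays. Even so, 6 of 8 erythroid markers that entered the test were highest on Igλ+ replicate 1, against 41.7% of all genes.

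**Figure D5:**
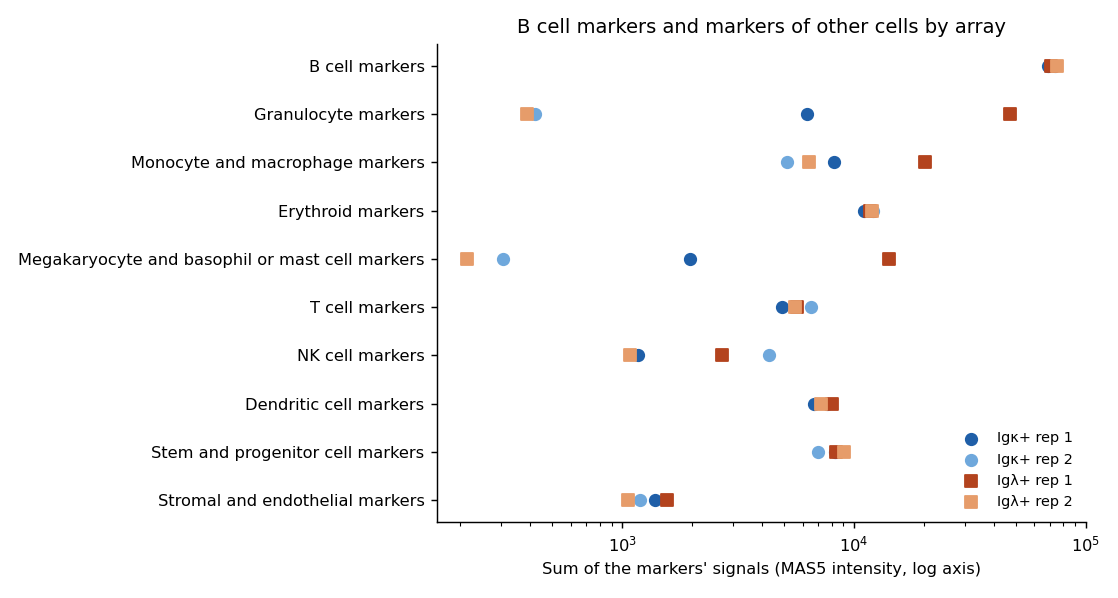
Summed signals (x axis, MAS5 intensity, logarithmic) of B cell markers and of 9 lists of markers of other cells on each array (circles for Igκ+, squares for Igλ+ arrays). B cell markers lie between 68617 and 74959 on all arrays, while granulocyte markers reach 46964 on Igλ+ replicate 1 against 390 on Igλ+ replicate 2.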

How the data were processed

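The deposited values are probe set intensities (signals) of Affymetrix arrays on a linear scale. Per the submitters' processing notes MAS5 made them; no version or scanner setting is named in the sources used here. On each array the deposited intensities average 499.9 once the lowest and highest 2% are left out, so each array carries 1 scaling factor. Precision is limited by the small number of arrays.

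Groups and replicate numbers came from the titles, where "-rep" marks replicate 2. Gene names came from the platform's annotation: 34945 carried 1 symbol, 932 several and 9160 none, and 64 were controls. Entrez identifiers of 34741 were found in RefSeq (GRCm38.p6). The test was limma 3.58.1 in R 4.3.3 on log2(signal + 16) of the 4 arrays, with a mean-variance trend, 2 residual degrees of freedom, two-sided, Benjamini-Hochberg adjustment over 22388 probe sets and a threshold of 0.05. Gene lists used each gene's brightest probe set in that fit; of the probe sets, 1094 passed the filter through 1 group only. On simulated data of this comparison with 22388 probe sets, 4%, 36%, 92% and 94% of changes of 1, 2, 3 and 4 log2 units were recovered, with 6 false calls. The simulated noise was drawn from the fitted trend, independently for each array. It lacks the disagreement of the real Igλ+ arrays, so these shares do not hold for probe sets on which they disagree. Igkv14-111, at -5.51 ± 1.36 (SE), did not pass the real test.

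Named genes were those past the threshold, filled to 12 per direction from those 2-fold or more apart in every one of the 4 array pairs, with at most 3 immunoglobulin variable genes per direction, the light chains, Rag1, Rag2, Map3k7, up to 4 genes per list and, per direction, 8 genes that differ most between the Igλ+ arrays. Rgs1, Wfdc21, Cox6a2, Tfdp1, Uhrf1, Cep55, Stmn1, Xist, Eif2s3y and other list members printed were picked with their values known. The 28 lists, the members and the motifs were chosen with earlier results of these data known. Promoters are RefSeq's, GRCm38.p6. Alternatives were pseudocounts of 1 and 64, no filter and one at the 60th percentile, 3 other normalizations, 1 probe set per gene, eBayes without a trend, all 6 arrays, the replicate block and leaving out each array.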

Additional observations from a re-analysis of the deposited data

How the results depend on the processing

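No probe set passed the threshold in any alternative that kept all 4 arrays, nor without either Igκ+ array. Leaving out 1 array gave 0 to 317 calls. Without Igλ+ replicate 1 there were 20, all lower in Igλ+ cells, of which 7 were κ probe sets. Without Igλ+ replicate 2 there were 317, with 246 higher, 44 of them markers of other cells and 245 highest on the array that remained, and 71 lower, 17 of them κ probe sets. Here the lone Igλ+ array is assumed to vary like the Igκ+ pair. Standing above the Igκ+ arrays nearly follows from being called higher there, while standing above the array left out does not. How the counts of marker and κ probe sets among the calls compare with their shares of all tested probe sets was not tested. Probe sets at least 2-fold apart in all pairs numbered 30; there were 81 with a pseudocount of 1, 18 with a pseudocount of 64 and 19 with the filter at the 60th percentile, 21 to 42 in the other alternatives with 4 arrays, and 105 to 928 with 1 array left out, where fewer pairs need to agree. The κ median lay between -6.14 and -1.66 without 1 array. Its direction could not turn there, because 15 of the 16 probe sets had the groups apart. The λ median of 0.97 became 0.54 without Igκ+ replicate 2, the lowest of a range that reached 1.21.

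Calls at an unadjusted p under 0.05, 146 higher and 87 lower, became 95 and 104 under quantile normalization, 85 and 196 under median centring and 63 and 361 under scaling on the spiked controls. The last 2 shifted the median of all probe sets by -0.15 and -0.18 on the log2 scale. The count was 1018 without the filter, 357 without the trend, 475 with all 6 arrays and 125 with 1 probe set per gene. With the title suffix as a replicate block 0 probe sets were called, with 597 at an unadjusted p under 0.05. With only 2 pairs, and a correlation of 0.25 between the replicate differences of the groups over 22388 probe sets, the pairing is not established.

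Of the named genes followed under these alternatives, 295 values kept their direction and side of the threshold, 13 newly passed it and 0 turned. The groups did not overlap for any of these genes at the probe set followed, so leaving out an array could not turn their direction. Signals near background limit the dim genes: levels under about 17.4 have no order.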

Other observations

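Ighm, the heavy chain of IgM, is read by 11 probe sets that differed widely. The 2 brightest on average were close on all arrays, at 7199 and 8585 in Igκ+ against 7486 and 7650 in Igλ+ cells, and at 5728 and 6404 against 4529 and 4924. Of the others, 1 read 5036 and 37.3 against 1255 and 4.24, another 3910 and 40.1 against 940 and 10.4, both high on the replicate 1 array of each group. Another read 1163 and 120 in Igκ+ cells and was at background on both Igλ+ arrays. Another read 846 and 459 against 19.6 and 753, low on Igλ+ replicate 1 alone, the array where the κ probe sets were lowest. Which part of the transcript each probe set reads was not examined.

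Pcp4, a calmodulin-binding peptide, read 396 and 420 in Igκ+ against 101 and 205 in Igλ+ cells. Ryr2, a calcium release channel, read 66.3 and 77.2 against 15.2 and 24.5, and its second probe set, 34.3 and 20.4 against 14.8 and 30.7, overlapped. Ddit4, an inhibitor of mTORC1, read 3820 and 4315 against 2874 and 2263. Tent5c, a poly(A) polymerase of antibody-secreting cells, read 609 and 194 against 116 and 124 and, at a second probe set, 316 and 101 against 43.7 and 39.6. Asns, the asparagine synthetase that is induced together with Ddit3 and Trib3 by ATF4, read 237 and 57.6 against 504 and 211 and overlapped. All of them were picked with their values known.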
